A study of Rattus norvegicus with 35 samples.

Results

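The interferon response and class I processing genes are 9 rat genes, B2m, Tap1, Tap2, Tapbp, Irf1, Irf7, Mx1, Mx2 and Gbp2, measured here in the olfactory epithelium, the sensory lining of the nose. Their probes were found on the microarray by gene symbol, in the probe's name or in brackets in its description, which made 9 of the 35561 distinct gene names on it and 12 of its 41012 probes. B2m had 4 probes and each of the other members had 1. The members were named by function, and no measured value entered the rule.

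Interferons are secreted proteins that cells release on infection, and they act on neighbouring cells through receptors, JAK kinases and STAT transcription factors. The responding cell then transcribes a set of interferon-stimulated genes, through promoter elements bound by the STAT complexes and by interferon regulatory factors such as Irf1 and Irf7. Several of these genes act directly on viruses or vacuolar pathogens (Mx1, Mx2, Gbp2), and others serve the display of peptides by class I molecules to CD8+ T cells and NK cells (B2m, Tap1, Tap2, Tapbp). The olfactory epithelium is open to inhaled air and its neurons reach directly into the brain.

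Total RNA of 27 Brown Norway rats was labelled with Cy3 and hybridised to 35 one-colour arrays. There were 19 newborn pups of 3 to 5 days from 4 litters, L1 with 4 pups and L2, L3 and L4 with 5 each, and 1 array was made per pup. The 4 adult males were 9 weeks old and the 4 old males 22 months old, and each of these rats gave 2 arrays, 1 for the epithelium of each side of the nose. The labels name no genetic modification and no treatment, the sex of the pups is not given, and the litters and the older males were different animals, so that age cannot be told apart from sex. Pups had been bought with their mothers, and the litter mates share a mother.

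The sequences around the interferon-type elements found in promoters of the members are shown first. The members were named for the interferon response, which works through such elements, so that finding them is not independent of the selection. RefSeq promoter windows, 250 bases before to 50 after the start of each gene in the GRCr8 build, were held for 8 members and not for Mx2. The interferon-stimulated response element (ISRE) was searched as GAAA, any 2 bases and GAAA again, and the interferon-gamma activated site (GAS) as TTC, any 3 bases and GAA, each on both strands. Each window is printed 5′ to 3′ on the strand of its gene, with the matched letters in capitals, so that a match on the opposite strand reads as its reverse complement.
B2m, chr3:129549150-129549219, plus strand, ISRE-type match beginning 150 bases before the start: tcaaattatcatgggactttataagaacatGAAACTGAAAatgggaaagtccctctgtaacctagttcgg
Tap1, chr20:4668625-4668694, minus strand, ISRE-type match, 121 bases before: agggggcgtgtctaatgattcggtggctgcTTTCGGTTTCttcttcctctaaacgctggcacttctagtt
Tap2, chr20:4652298-4652367, minus strand, ISRE-type match, 41 bases before: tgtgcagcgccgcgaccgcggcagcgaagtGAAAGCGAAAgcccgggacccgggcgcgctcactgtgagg
Tapbp, chr20:4967878-4967933, minus strand, overlapping ISRE-type matches, 26 and 20 bases before: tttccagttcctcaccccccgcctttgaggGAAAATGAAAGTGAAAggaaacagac
Irf7, chr1:205800053-205800122, minus strand, ISRE-type match, 69 bases before: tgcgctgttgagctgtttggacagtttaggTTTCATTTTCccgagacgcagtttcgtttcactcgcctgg
Gbp2, chr2:234005666-234005726, plus strand, ISRE-type match, 31 bases before: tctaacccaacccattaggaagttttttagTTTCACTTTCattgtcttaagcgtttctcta
Irf1, chr10:38417763-38417831, plus strand, GAS-type match, 142 bases before: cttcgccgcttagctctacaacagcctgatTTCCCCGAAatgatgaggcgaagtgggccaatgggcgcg

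The ISRE letters occurred in 6 of the 8 member promoters and in 3.92% of the 33469 rat promoters of the same length. The GAS letters occurred in 1 of the 8, that of Irf1, and in 8.87% of all promoters. Neither pattern was found in the Mx1 window, which says only that these letters were not in these 300 bases. A match is a description of the sequence and no evidence that a factor binds there. Tap1 shares its upstream region with the immunoproteasome gene Psmb9, whose start lies 457 bases away on the other strand.

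What the arrays read is a 60-base probe in the transcript. The probes below are examples from 4 members, the transporter genes Tap1 and Tap2, which separated all old rats from all pups, Irf7, and Mx1, which was below background in pups, with the positions of the array design on the older rn3 build. Whether they lie in coding or untranslated exon sequence on that build was not analysed here.
Irf7 probe, chr1:201607889-201607948, minus strand: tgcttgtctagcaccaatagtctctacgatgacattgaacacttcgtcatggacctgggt
Mx1 probe, chr11:37497220-37497279, minus strand: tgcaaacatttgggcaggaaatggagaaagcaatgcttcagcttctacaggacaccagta
Tap1 probe, chr20:4793054-4794189, minus strand: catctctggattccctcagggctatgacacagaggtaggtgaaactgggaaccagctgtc
Tap2 probe, chr20:4770974-4771033, minus strand: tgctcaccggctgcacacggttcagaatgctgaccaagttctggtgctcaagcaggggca
The Tap1 probe's positions span 1136 bases for its 60 letters, so that its letters do not run continuously in that build.

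Levels are given as the log2 of the background-subtracted signal over the median signal of all probes of the same array, so that 0 is the level of the median probe and a step of 1 is a 2-fold difference. They compare rats for 1 gene and not genes with each other. Array medians lay between 37.2 and 164 intensity units, and 24484 to 28361 probes stood above background on an array. The medians were 82.4 to 164 in adults, 42.1 to 87.8 in pups and 37.2 to 55.3 in old rats, so that array brightness was tied to age. A transcript was taken as expressed in common when it stood above background on at least 3 arrays of each litter and at least 6 of the 8 arrays of the adult and of the old rats, and 23668 probes were, among them 11 member probes covering 8 members. Mx1 was the exception. The olfactory identity of the tissue held in every age group, the 5 markers of olfactory sensory neurons that could be matched (Omp among them) being expressed in common, with a summed level of 1040 to 2070 times the array median in pups, 3530 to 4390 in adults and 6700 to 8060 in old rats.

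Adult rat 15 stood apart from the other 3 adults for most members, and L2 pup 24 stood apart from its litter for several. Both are kept in all comparisons, and the results are given again without rat 15 where it changes them. Age was also tied to the day of scanning. The adults were scanned on 2 days of their own, the old rats on the same day as litter L1 but on other slides, L2, L3 and L4 mostly on their own slides on a later day, and pups 24, 26, 28 and 34 on the last. Old rats against L1 is therefore the only age comparison within a scan day.

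**Figure D1:**
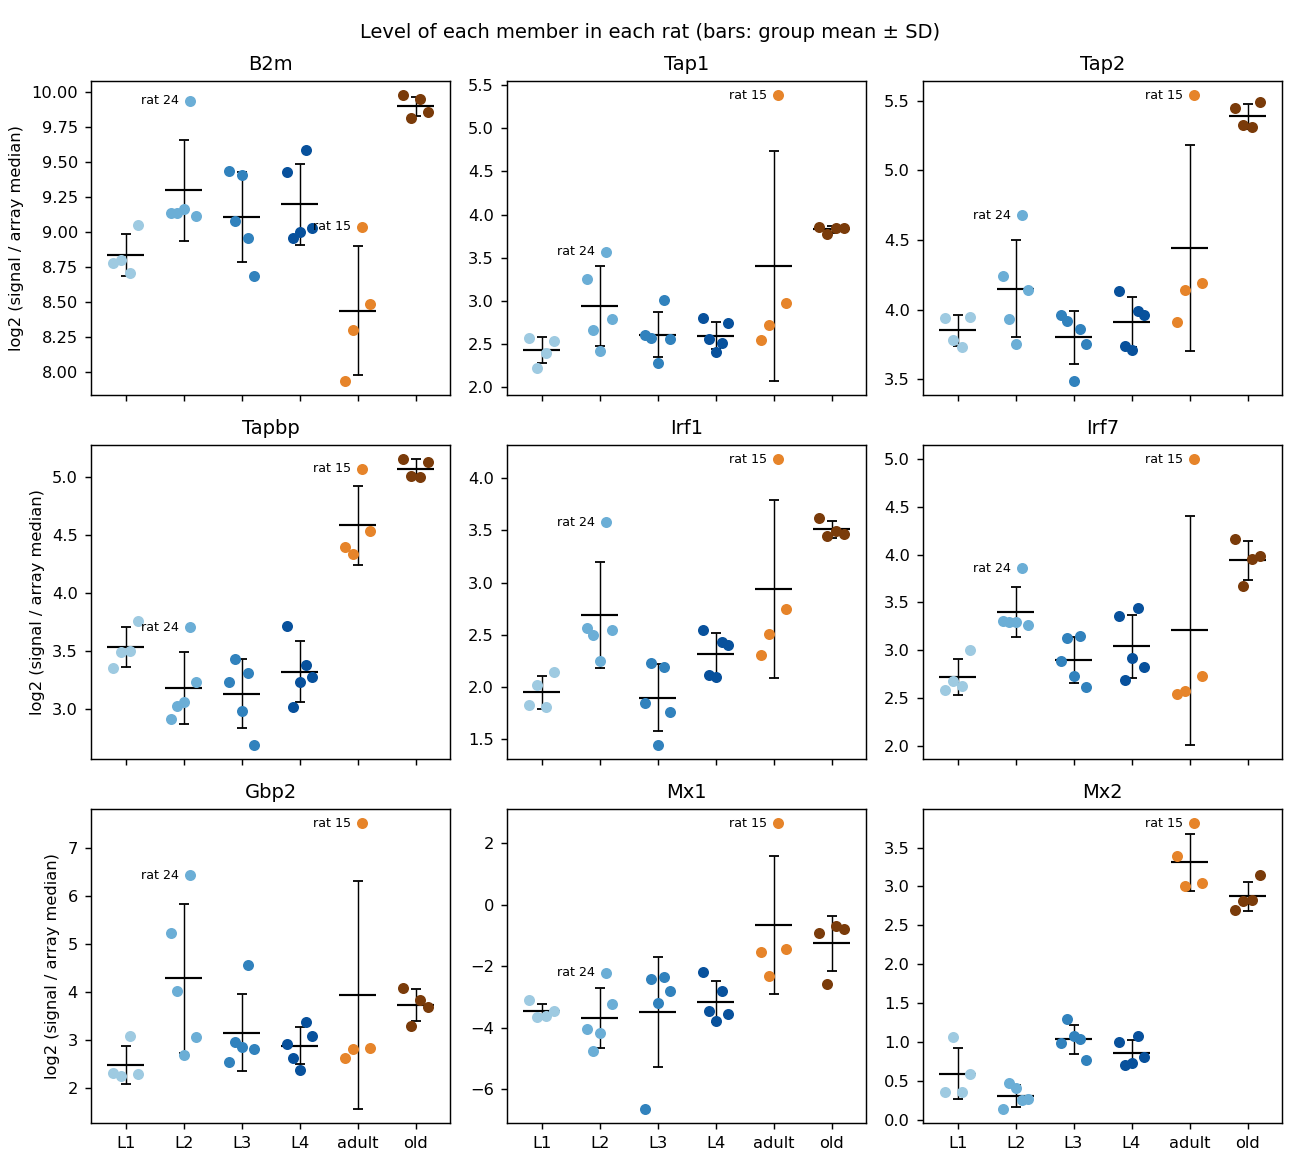
Level of each of the 9 members (log2 signal over the array median, vertical axis) in every rat, grouped as litters L1 to L4, adult and old; each point is 1 rat, with the mean and SD of the group. Adult rat 15 lies above the other adults in all 9 panels, and the 4 old rats lie close together, with an SD of at most 0.33 for every member but Mx1.

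B2m, beta-2-microglobulin, is the light chain that every class I molecule needs to reach the cell surface. Its brightest probe stood at 8.69 in the lowest of the pups, 9.08 at their median and 9.94 in the highest, pup 24. In the adults it stood at 7.94, 8.30, 9.04 and 8.49 (rats 13, 14, 15 and 16), and in the old rats at 9.98, 9.82, 9.95 and 9.86 (rats 17 to 20). The order was thus adult, newborn, old, with the adult and newborn ranges overlapping and only pup 24 reaching the range of the old rats. The probe was lower in adults than in pups by 0.67 ± 0.16 (SE; limma adjusted p = 6.39e-04), and higher in old rats than in pups by 0.79 (adjusted p = 1.36e-04) and than in adults by 1.46 (adjusted p = 2.06e-06). The other 3 probes gave the rise in old rats over pups as well (0.82, 1.04 and 0.93, each called) but not the fall in adults, where they differed by −0.09, 0.41 and 0.01 without a call. Under quantile normalization the adult change of the brightest probe was −0.02, not called, and the other 3 were called higher in adults (0.49, adjusted p = 0.00256; 0.90, adjusted p = 2.71e-05; 0.68, adjusted p = 3.69e-05), so the direction of B2m between pups and adults depended on the probe and the scaling. Between old and adult rats the other 3 probes gave 0.91, 0.63 and 0.92, the first and last called, and under quantile normalization 0.35, 0.14 and 0.31, none called. The brightest probe and one of the others share 41 of their 60 bases.

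Tap1 and Tap2 form the transporter that carries peptides from the cytosol into the endoplasmic reticulum. Tap1 stood between 2.23 and 3.57 in the pups, with a median of 2.57 and pup 24 the highest. The adults stood at 2.55, 2.72, 5.38 and 2.98 and the old rats at 3.86, 3.78, 3.84 and 3.85. All 4 old rats exceeded all 19 pups and 3 of the 4 adults, and 3 adults lay within the range of the pups. The rise in old rats over pups was 1.19 or 2.27-fold (limma adjusted p = 8.89e-04), a call that was lost with litter means as replicates (adjusted p = 0.0426). The adult difference of 0.76 was not called (adjusted p = 0.0216), was called under quantile normalization (0.90; adjusted p = 0.00953) and was 0.10 without rat 15 (adjusted p = 0.573).

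Tap2 ran from 3.49 to 4.68 in the pups, with a median of 3.93. Adult values were 3.91, 4.14, 5.54 and 4.19, and old values 5.45, 5.33, 5.31 and 5.49. As for Tap1, the old rats lay above every pup, and rat 15 was the only adult to reach them. Old rats exceeded pups by 1.47, 2.77-fold (limma adjusted p = 1.26e-07), and adults by 0.95 (adjusted p = 0.00116), a difference that was 0.70 and lost its call under quantile normalization. The difference between adults and pups was 0.52 and not called (adjusted p = 0.0123), or 0.75 and called under quantile normalization (adjusted p = 7.15e-04), and it was 0.15 without rat 15 (adjusted p = 0.287).

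Tapbp, tapasin, tethers empty class I molecules to this transporter. The pups stood between 2.69 and 3.76 with a median of 3.27, the adults at 4.39, 4.33, 5.07 and 4.53, and the old rats at 5.15, 5.01, 5.00 and 5.13. The adult and old rats all lay above all pups, so Tapbp separated the newborn from both older groups without resting on rat 15. Relative to pups it was 2.44-fold higher in adults (1.29 ± 0.14, SE; limma adjusted p = 1.2e-08) and 3.44-fold higher in old rats (1.78; adjusted p = 6.72e-11).

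Irf1 and Irf7 are transcription factors of the response. Irf1 is itself induced by interferon-gamma, and Irf7 drives the amplification of type I interferon. Irf1 stood between 1.45 and 3.58 in pups (median 2.19), at 2.31, 2.51, 4.18 and 2.75 in adults and at 3.62, 3.45, 3.49 and 3.47 in old rats. Apart from pup 24, which reached the old rats, and rat 15, which exceeded them, the old rats were the highest. The rise over pups was 1.29 in old rats (2.45-fold; limma adjusted p = 1.86e-05) and 0.72 ± 0.22 (SE) in adults (adjusted p = 0.00572), the latter falling to 0.31 and losing its call without rat 15 (adjusted p = 0.129), as it did with scan day as a random block (adjusted p = 0.0386).

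Irf7 stood between 2.58 and 3.86 in pups (median 3.00), at 2.54, 2.57, 5.00 and 2.73 in adults and at 4.16, 3.67, 3.96 and 3.99 in old rats. Adult rats 13 and 14 lay just below the range of the pups and rat 16 within it. Old rats exceeded pups by 0.93 (limma adjusted p = 0.00344), a call that was lost with scan day as a random block (adjusted p = 0.0277), with slide as a block (adjusted p = 0.0167) or with each litter mean as 1 replicate (adjusted p = 0.0827). Adults differed from pups by 0.19 with rat 15 (adjusted p = 0.518) and by −0.40 without it (adjusted p = 0.018), neither called.

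Gbp2 encodes a guanylate-binding protein, a GTPase that is among the genes most strongly induced by interferon-gamma. It was the most variable of the 8 members expressed in common. Pups ran from 2.26 to 6.43 with a median of 2.92, and the highest 4 pups (24, 21, 29 and 22) stood at 6.43, 5.24, 4.57 and 4.03. Adults stood at 2.63, 2.83, 7.51 and 2.84 and old rats at 4.09, 3.30, 3.84 and 3.69. The 3 other adults lay inside the range of the pups, and no age comparison of Gbp2 was called (limma adjusted p = 0.28 for adults and 0.462 for old rats against pups). Within groups its SD was 1.20, larger than that of 99.5% of the transcripts, and still 0.82, larger than that of 98.6%, when rat 15 was left out. By comparison the SD within groups was 0.20 for the median transcript, 0.56 for Tap1 and 0.51 for Irf7, and these last 2 became 0.27 and 0.24 without rat 15.

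Mx1 and Mx2 encode dynamin-like GTPases that block the replication of RNA viruses. Mx1 stood above background on none of the 19 pup arrays, on both arrays of rat 15, on 4 of the 6 arrays of the other adults and on 6 of the 8 arrays of the old rats. Its adult levels were −1.55, −2.33, 2.64 and −1.45 and its old levels −0.92, −2.60, −0.69 and −0.81, whereas pup readings, from −6.64 to −2.19, were below background and have no order among them. Set against the lowest signal that counted as above background on each pup array, mean Mx1 was 3.12-fold higher in adults and 2.08-fold higher in old rats, and 1.45-fold higher in adults without rat 15. The adult and old means took their arrays below background as they read, so that only the pup side is a bound. The fit without the filter on dim probes, which takes the readings of the pups as they are, gave a limma adjusted p of 0.00167 for adults against pups (0.0296 without rat 15) and of 0.0112 for old rats (0.00204 without rat 15).

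Unlike Mx1, Mx2 was above background on all 35 arrays. Pups lay between 0.14 and 1.29 (median 0.73), adults at 3.39, 3.00, 3.81 and 3.04, and old rats at 2.69, 2.81, 2.82 and 3.14. Every adult and old rat stood more than 1 log2 unit above every pup. The change was 2.61 ± 0.13 (SE) in adults, 6.12-fold (limma adjusted p = 5.75e-15), and 2.17 in old rats, 4.50-fold (adjusted p = 3.11e-13), and it was still 2.45 in adults without rat 15. The adult and old ranges overlapped and their difference of −0.44 was not called, though it was under quantile normalization (−0.53; adjusted p = 0.00614). Mx1 and Mx2 are related in sequence, as are the guanylate-binding protein genes, and hybridisation of a probe to a relative was not tested.

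Across the members, 4 of the 8 expressed in common were called between adults and pups at an adjusted p under 0.01, Tapbp, Mx2 and Irf1 higher in adults and the brightest B2m probe lower. Of all 23668 transcripts 66.2% were called in this comparison, 26.1% higher and 40.1% lower in adults, so a called share of 4 in 8 lay below the background under this scaling. Under quantile normalization 5 of the 8 were called, all higher in adults, beside 15817 of all transcripts. With scaling to the 75th percentile 6 were called, 5 of them higher, beside 15883 of all transcripts. Old rats against pups gave 7 of the 8, all higher in old rats, with Gbp2 (0.53) the one not called. The background there was 59.8% called in either direction and 31.5% higher. All 4 old rats exceeded all 19 pups for 4 members, Tap1, Tap2, Tapbp and Mx2, which was true of 17.4% of transcripts. In this bulk tissue fewer cells of a type and less RNA per cell cannot be told apart.

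Between adults and old rats 2 of the 8 were called, B2m and Tap2, both higher in old rats (background 47.5% called, 32% higher). Under quantile normalization 1 was called higher and 1 lower in old rats. Without rat 15 there were 6 of 8 under the array median, all higher in old rats (background 44.7% called, 31.2% higher). Rat 15 was singled out by its high values for these same genes, so this count is not independent of that choice. The 4 further members were Irf7 (1.33; limma adjusted p = 1.75e-06), Tap1 (1.08; adjusted p = 6.13e-05), Irf1 (0.98; adjusted p = 6.06e-04) and Tapbp (0.66; adjusted p = 0.00308), while Gbp2 (0.97) and Mx2 (−0.28) were not called. Left out of the comparison of adults with pups, rat 15 took the call of Irf1 with it, and Tapbp (1.12), Mx2 and B2m (−0.87) remained called, as 3 of 8 (background 61.9% called, 23.3% higher and 38.5% lower). The scaling mattered for the background as well. The median transcript differed by −0.16 between adults and pups and by 0.19 between old rats and adults under the array median, and by 0.01 and 0.04 under quantile normalization, by which 8125 transcripts were called higher and 7692 lower in adults than in pups, where the array median gave 6177 and 9502. Between old and adult rats quantile normalization gave 5598 higher and 5177 lower, and the array median 7574 and 3661.

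**Figure D2:**
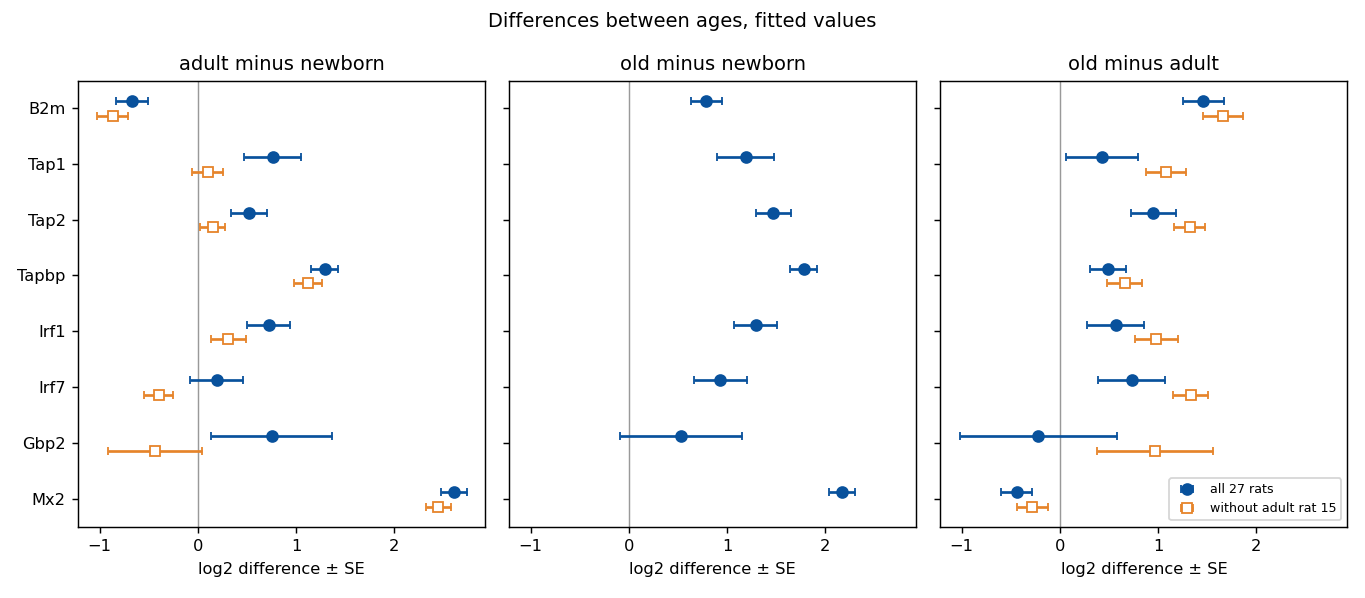
Log2 differences (horizontal axis, with SE) of the 8 members expressed in common for adult minus newborn, old minus newborn and old minus adult, from all 27 rats and without adult rat 15. Leaving out rat 15 moved Gbp2 between adults and pups from 0.75 to −0.44 and Irf7 from 0.19 to −0.40, and raised the number called between adults and old rats from 2 to 6.

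Within the 1 scan day that held both ages, old rats exceeded the 4 pups of L1 for the same 7 members (7 of 8; background 48.4% called, 30.6% higher). The differences were 2.28 for Mx2, 1.56 for Irf1, 1.55 for Tap2, 1.54 for Tapbp, 1.40 for Tap1, 1.22 for Irf7 and 1.06 for B2m. Gbp2, at 1.24, was not called (limma adjusted p = 0.184) although its 4 old rats all exceeded the 4 pups. With slide as a random block the calls of Irf7 (adjusted p = 0.0365) and Tap1 (adjusted p = 0.025) were lost here. Every old rat stood above every L1 pup for all 8 members, which held for 35.7% of all transcripts, while for a further 21.1% every old rat stood below.

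Rat 15 was high on both sides of its nose. Sides A and B gave 7.38 and 7.64 for Gbp2, 5.42 and 5.34 for Tap1, 4.98 and 5.02 for Irf7, and 2.58 and 2.71 for Mx1. Over the 8 adult and old rats the sides differed by a median of 0.13 for the 8 members expressed in common, close to the 0.123 of all transcripts, and by 0.83 at most, for Gbp2 in old rat 17. The excess of rat 15, given next, exceeded for each member the largest difference between sides of that same member. For B2m (0.80), Mx2 (0.66) and Tapbp (0.66) it was below the 0.83 of Gbp2. Rat 16, hybridised on the same slide as rat 15, stood at 2.84 for Gbp2, 2.98 for Tap1 and 2.73 for Irf7, the highest of the other 3 adults for each, and the part of the slide was not tested.

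Against the mean of the other 3 adults rat 15 stood 4.74 log2 units higher for Gbp2 (26.8-fold), 4.42 for Mx1 (21.4-fold), 2.63 for Tap1, 2.39 for Irf7, 1.66 for Irf1, 1.46 for Tap2, 0.80 for B2m and 0.66 each for Mx2 and Tapbp. For Mx1 the other adults stood above background on 4 of 6 arrays. Ranked among the 23668 transcripts expressed in common, the excess of Gbp2 came at position 2, that of Tap1 at 24 and that of Irf7 at 34. The interferon-stimulated genes beyond the members were also high, rat 15 being the highest adult for 26 of the 26 expressed in common and by more than 1 log2 unit for 16, with a median excess of 1.20. Over all 23668 transcripts rat 15 was the highest adult for 36.9%, by more than 1 unit for 1.04%, with a median of 0.09. With only 1 such rat, these are values with no test.

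Several further genes of the response stood above background on both arrays of rat 15 and on few or none of the 6 arrays of the other adults, so that their excess is a lower bound, against the lowest signal that counted as above background. Cxcl9, Cxcl10 and Cxcl11, chemokines that attract activated T cells, were at least 44.0-fold, at least 55.0-fold and at least 11.7-fold higher, the other adults being above background on 0, 1 and 0 arrays. Ido1, which degrades tryptophan, was at least 3.67-fold higher (1 array). Ifng, the gene of interferon-gamma, stood above background on both arrays of rat 15 and on no other array of the study, at least 1.82-fold higher than in the other adults. Several markers of lymphocytes and of neutrophils were higher in the same rat. Rat 15 was the highest adult for 8 of 9 T cell markers, whose summed level was 39 times the array median against 21.7 to 28.2 in the other adults, and for 6 of 6 NK cell markers above background in adults, with a sum of 16.7 against 4.64 to 6.59. Between 69.3% and 85.1% of the T cell sum in adults came from Cd3g, which was 0.41 above the other adults in rat 15, while Cd3d was 1.72 and Cd8b 1.30 above them. Cd3e, Cd247, Cd2 and Cd5 stood above background on both of its arrays and on none of the other adult arrays. Markers of B and plasma cells summed to 11.2 against 8.68 to 10 (6 of 7 highest), those of macrophages to 137 against 74.6 to 129 (2 of 7 highest), and those of olfactory sensory neurons to 3990 against 3530 to 4390 (0 of 5 highest). For comparison, rat 15 was the highest adult for 34.5% of the 30581 transcripts above background on an adult array. Neutrophil markers summed to 11.5 against 3.96 to 8.55 (4 of 5 highest), with S100a8 1.19 and S100a9 0.93 above the other adults. The part of these cells in the levels of the members was not tested.

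**Figure D3:**
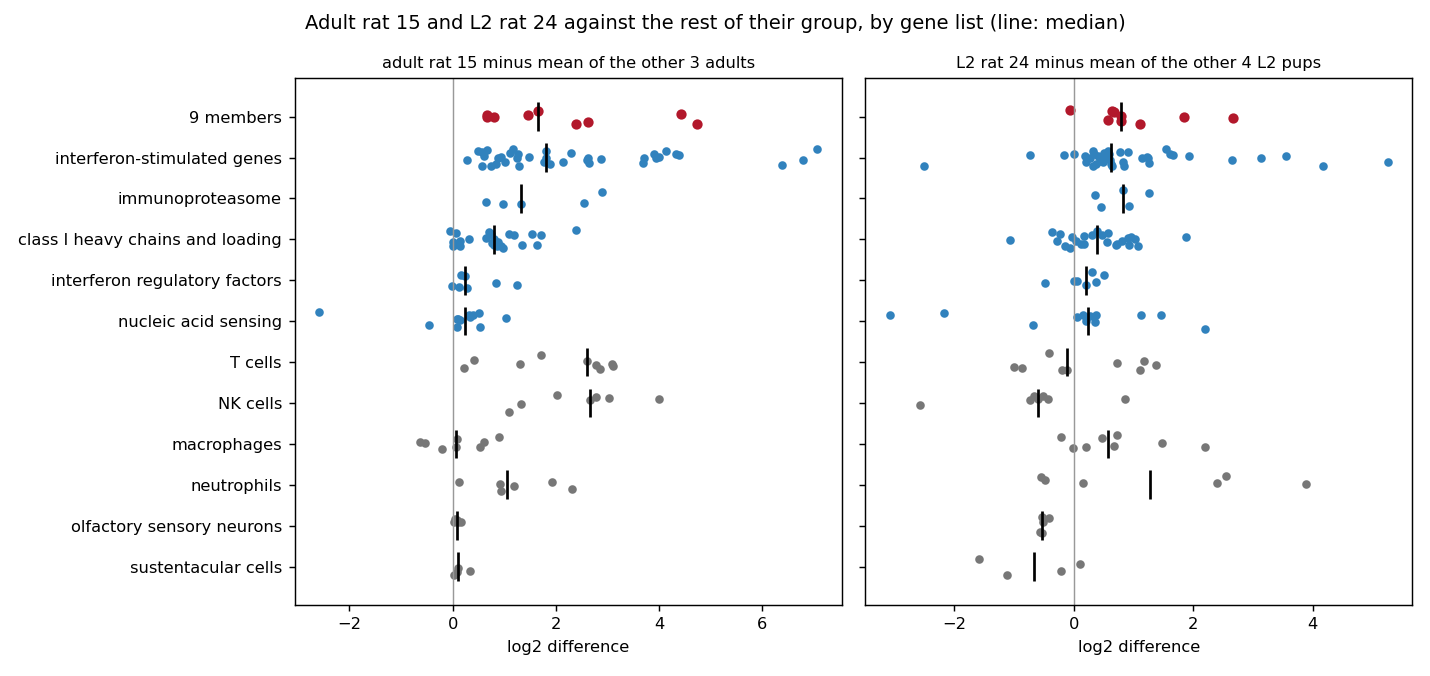
Excess of adult rat 15 over the mean of the other 3 adults, and of L2 pup 24 over the mean of the other 4 L2 pups (log2), for each measured gene of the members and of the pathway and marker lists, with the median of each list. The interferon-stimulated genes lay at a median of 1.81 in rat 15 (1.20 over the 26 expressed in common), and the markers of olfactory sensory neurons at 0.09; genes below background in the other rats rest on readings that have no exact level.

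Pup 24 of litter L2 was the highest of its litter for 7 of the 8 members expressed in common, Mx2 being the exception. Its excess over the other 4 L2 pups was 2.67 for Gbp2 (6.38-fold), 1.11 for Irf1, 0.79 for Tap1 and for B2m, 0.67 for Tap2, 0.64 for Tapbp and 0.58 for Irf7, and −0.07 for Mx2. Mx1 was below background in this pup as in all pups. Markers of other cells were uneven in this pup. The neutrophil sum was 198 against 23.6 to 64.7 in the other L2 pups, carried by S100a8 and S100a9 (excess of 2.40 and 2.55), while Camp gave 0.15, Ngp −0.48 and Ela2 −0.55, these last 3 not being expressed in common. The macrophage sum was 374 against 164 to 184, carried by Cd14 (2.20), with Itgam at 1.48 and Aif1 at 0.68, while Mrc1 gave 0.47, Adgre1 0.20, Csf1r −0.01 and Cd68 −0.21. T cell markers (31.3 against 29.4 to 34.9) lay within the litter, and NK cell markers (2.41 against 3.24 to 4.44), olfactory sensory neuron markers (1080 against 1350 to 1910) and sustentacular cell markers (1020 against 1400 to 1950) lay below it. Pup 24 was scanned on the last day, and for B2m pups 26, 28 and 34 of that day were also the highest or the second highest of their litters, with 9.44, 9.41 and 9.59. For other members the pups of that day went both ways. Pup 28 was the lowest of L3 for Tap1 (2.28), Tap2 (3.49) and Irf1 (1.45) and pup 26 the lowest for Gbp2 (2.56). Pup 26 was the highest of L3 for Tap2 (3.96), and pup 34 the highest of L4 for Gbp2 (3.38), Irf7 (3.44) and Mx2 (1.07). The part of the scan day and of these cells in the levels of pup 24 was not tested.

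Markers of other cell types differed with age in several directions. T cell markers summed to 20.2 to 51.9 in pups, 21.7 to 39 in adults and 47.4 to 58.1 in old rats, of which Cd3g alone made 69.3% to 91.7% over all rats. All 3 that were expressed in common, Cd3d (1.49), Cd3g (0.52) and Cd8b (2.09), rose in old rats over pups, and also over adults. Cd4 stood above background on all 8 adult arrays and on 4 of the 8 old arrays. Cd3e, Cd247, Cd2 and Cd5 stood above background on none of the 19 pup arrays, and on 6, 1, 0 and 5 of the 8 old arrays. NK cell markers summed to 1.57 to 4.44, 4.64 to 16.7 and 7.34 to 9.54, and the 1 expressed in common was higher in both older groups than in pups. Of the B cell markers Cd79a differed from pups by −0.93 in adults and −0.30 in old rats, both called lower, and Cd79b differed by −0.71 and −0.60 without a call. Sustentacular cell markers were higher in old rats than in pups for 4 of 4, where 31.5% of all transcripts were. Of 7 macrophage markers 3 were higher in old rats than in pups, Adgre1 (1.46), Itgam (1.25) and Aif1 (0.59). Lower were 2, Cd68 (−1.75) and Mrc1 (−2.44). The neutrophil markers S100a8 (−2.58) and S100a9 (−2.93) and the endothelial markers Kdr (−1.68) and Cldn5 (−1.22) were lower in adults than in pups, while the endothelial Vwf (−0.18) was not called. The part of these cells in the higher levels of Tap1, Tap2, Tapbp, Irf1 and Irf7 in old rats was not tested.

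Only Mx2 differed between litters L2, L3 and L4 (1 of 8 members; limma F test, adjusted p = 0.00209; background 10.9%). The L2 pups 21 to 25 stood at 0.14, 0.47, 0.41, 0.25 and 0.26. The L3 pups ran from 0.76 to 1.29 with a median of 1.03, and the L4 pups from 0.70 to 1.07 with a median of 0.80. Every L2 pup lay below every pup of L3 and L4, and the latter overlapped. Litter and slide went together except for 4 pups, and on the slide shared by L2 pup 24 and L3 pup 28 Mx2 stood at 0.25 and 1.08. With slide as a random block the call was lost. The age differences were called against each litter for Mx2, whose adult change ran from 2.28 against L3 to 3.00 against L2, and for Tapbp, from 1.05 against L1 to 1.45 against L3. Against L2 alone the calls of Tap1, Irf1 and Irf7 in old rats were lost, and that of Irf7 was also lost against L4 alone (limma adjusted p = 0.0181).

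Most pairs of members correlated positively from pup to pup. Each member was centred on its litter mean, and the 28 pairs of 8 members were correlated over the 19 pups, with a permutation test of pups within litters. Of the 28 coefficients 25 were positive, with a median of 0.55, and 13 pairs passed an adjusted p under 0.05. Transcripts in general also shared variation between pups, the median coefficient over all pairs of the 23668 transcripts being 0.11. A coefficient of 0.5 or more was found for 17 of the 28 member pairs and 17.0% of all pairs, or 13 of 28 and 19.3% without pup 24. The closest were Tap2 with Irf1 (Pearson r = 0.88, permutation adjusted p = 0.00177; Spearman rho = 0.85, adjusted p = 0.00196; r = 0.77 without the 2 pups farthest from the median of Tap2), Tapbp with Irf7 (r = 0.87, permutation adjusted p = 0.00177; rho = 0.81, adjusted p = 0.00364; r = 0.85 without 2 pups) and Tap1 with Tap2 (r = 0.86, permutation adjusted p = 0.00177; rho = 0.80, adjusted p = 0.00579; r = 0.79 without 2 pups). Mx2 was the exception, and its coefficients ran from −0.30 with Tap1 to 0.40 with Irf7, none passing. The count depended on pup 24. Without it 4 pairs passed, Tap2 with Irf1 (r = 0.78), Tapbp with Irf7 (0.82), Tap1 with Tap2 (0.77) and Irf1 with Irf7 (0.73), and Gbp2 fell from 0.84 to 0.73 with Tap1, which no longer passed (permutation adjusted p = 0.0642). Over the 15 pups of the first 4 scan days 10 pairs passed by Pearson r and 1 by Spearman rho.

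**Figure D4:**
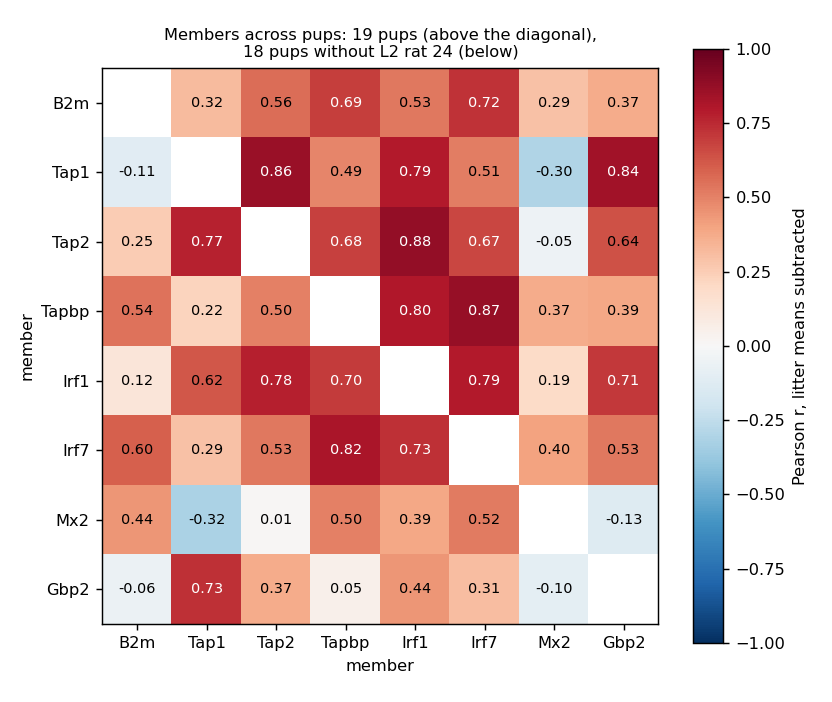
Pearson correlation between members across pups after centring on litter means, with all 19 pups above the diagonal and 18 pups without pup 24 below it; colour gives r. Tap1, Tap2, Irf1, Irf7 and Tapbp form most of the high coefficients, up to 0.88, and Mx2 stands apart from Tap1, at −0.30.

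Among the transcripts whose levels followed Irf7 most closely over the 27 rats, after the mean of each group was subtracted, were the immunoproteasome subunit Psmb9 (r = 0.94) and the interferon-inducible GTPase Ifgga2l1 (0.94). The closest members were Tap2 (0.90), Tap1 (0.89) and Irf1 (0.89), and without rat 15 they gave 0.66, 0.51 and 0.77, the closest member then being Tapbp at 0.85. These coefficients describe the arrays and carry no test, and rat 15 weighed on them. Without it the closest 5 transcripts other than members were Hipk3 (0.85), Gk, Oasl2, Tnfsf13 and Ccl28 (0.84 each). For B2m the closest were the class II gene RT1-Db1 (0.95), RT1-CE12, Lysmd3, RT1-M6-2 and Np_mapped (0.93 each), and without rat 15 RT1-Db1 was still the first, at 0.94.

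The other genes of the pathway were described from 6 lists with the members left out, in which near-identical genes such as those of the RT1 class I family cannot be separated with certainty. A list gene or cell marker with several probes, such as Ifit1 (3 probes) and Rsad2 (2 probes), was read from the probe with the highest mean level. Its other probes are not given. Of the interferon-stimulated genes 38 were matched and 26 expressed in common. In old rats 9 of the 26 were higher and 3 lower than in pups (13 and 3 without rat 15), with a median difference of 0.64 against 0.03 for all transcripts. The share higher lay near the 31.5% of all transcripts, and so did that of adults, 7 of 26, near its 26.1%. The highest rises were those of Bst2, tetherin, which holds budding virions at the cell surface (1.45), and Oas1a, which makes the activator of RNase L (1.44). Ifit1 and Rsad2 (viperin), both antiviral and strongly inducible, fell by 1.46 and 1.38. In adults 7 were higher and 3 lower than in pups, and without rat 15 there were 5 and 5, the median moving from 0.43 to 0.07. Irgm and Ifi47, immunity-related GTPases, rose by 1.89 and 1.81 there with rat 15 included, and Ifit1 and Rsad2 fell by 3.14 and 1.60. Of these 4, Ifi47 lost its call without rat 15 (limma adjusted p = 0.0124). Old rats exceeded adults for 5 of the 26 and lay below for 1 (10 and 1 without rat 15), where 32% of all transcripts were higher and 15.5% lower. Ifit1 (1.68) and Ifi27l (1.13) rose there, and Trim25, which ubiquitinates RIG-I, fell by 0.76.

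The class I heavy chains and loading factors, 24 of which were expressed in common, had the largest share of calls of the 6 lists. Between old rats and pups 18 rose and 4 fell, with a median difference of 1.17, where 31.5% of all transcripts were higher and 28.3% lower. The largest were RT1-CE10 (2.38) and RT1-CE7 (1.65) upward and RT1-N3 (−1.17) and the lipid-presenting Cd1d1 (−0.92) downward. Adults gave 16 higher and 5 lower than pups (10 and 5 without rat 15), led by RT1-CE10 (1.33) and RT1-A3 (1.28), with Cd1d1 (−0.88) and RT1-N3 (−0.81) the lowest, and RT1-CE10 lost its call without rat 15 (limma adjusted p = 0.0186). Old rats exceeded adults for 12 and lay below for 2, with Tapbpl, a tapasin relative that edits peptides (1.29), and RT1-CE5 (1.01) the highest and Hfe (−0.60) and the chaperone Canx (−0.48) the lowest. Without rat 15 the split was 17 to 1, and under quantile normalization 4 to 3. The shares of all transcripts were 26.1% higher and 40.1% lower in adults than in pups, and 32% and 15.5% in old rats than in adults.

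The immunoproteasome makes the peptides that the Tap transporter carries. Its inducible subunits Psmb8 and Psmb9 were higher in old rats than in pups by 1.41 (limma adjusted p = 2.31e-04) and 1.40 (adjusted p = 5.01e-04), whereas Psmb10 differed by −0.29, Psme1 by −0.02 and Psme2 by −0.18 without a call. The PA28 activator subunits Psme1 and Psme2 were lower in adults than in pups, by −0.57 and −0.81, and higher in old rats than in adults, by 0.55 and 0.64. Those were the only calls of the 5 genes between adults and pups (0 up, 2 down) and between old rats and adults (2 up, 0 down), and under quantile normalization they became 0 up and 1 down in both. Without rat 15, 4 of the 5 were higher in old rats than in adults, against 31.2% of all transcripts. With all rats the shares of all transcripts were 26.1% higher and 40.1% lower in adults than in pups. They were 31.5% and 28.3% in old rats against pups, and 32% and 15.5% in old rats against adults.

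Genes upstream of the response gave calls in both directions, as transcripts in general did. The shares of all transcripts were 26.1% higher and 40.1% lower in adults than in pups. They were 31.5% and 28.3% in old rats against pups, and 32% and 15.5% in old rats against adults. Of 10 receptor and JAK-STAT genes, 3 were higher and 2 lower in adults than in pups, with the kinase Jak1 (1.02) and the phosphatase Ptpn2 (0.64) the highest and the receptor chains Ifngr2 (−0.69) and Ifnar1 (−0.25) the lowest. In old rats 5 were higher and 0 lower than in pups, Ifngr1 (0.53) and Stat3 (0.36) leading. Between old rats and adults 3 were higher (Ifngr2 0.65 and Stat3 0.56 at the top) and 2 lower (Ptpn2 −0.93, Jak1 −0.70), a split that was 0 to 2 under quantile normalization, while that of adults against pups was 5 to 1.

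In the list of interferon regulatory factors, Irf2bp1 (0.67), a binding partner of Irf2, and Irf9 (0.65), which works with STAT factors and also stood among the interferon-stimulated genes, were higher in adults than in pups, and Irf5 (0.71) and Irf2bp1 (0.46) were higher in old rats than in pups. Irf5 (0.66) and Irf3 (0.61) were higher in old rats than in adults, and Irf2 was called in no comparison. Without rat 15 Irf9 changed by 0.33 between adults and pups and was not called. Irf4 was above background on no array. Among 8 genes of nucleic acid sensing, 5 were higher and 0 lower in old rats than in pups, led by Nfkb1 (0.87) and the adaptor Myd88 (0.60). The shares of all transcripts there were 31.5% higher and 28.3% lower. Adults gave 2 higher (Nfkb1 0.72, Traf3 0.64) and 2 lower (Traf6 −0.51, Rela −0.25), or 5 and 1 under quantile normalization, and 2 rose between adults and old rats, Rela (0.54) and Mavs (0.40), or 1 and 1. All transcripts gave 26.1% higher and 40.1% lower in adults than in pups, and 32% and 15.5% in old rats than in adults. Of the type I interferon genes themselves, Ifnb1 stood above background on 1 of 35 arrays and Ifna4 on 4, all of them from old rats.

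**Figure D5:**
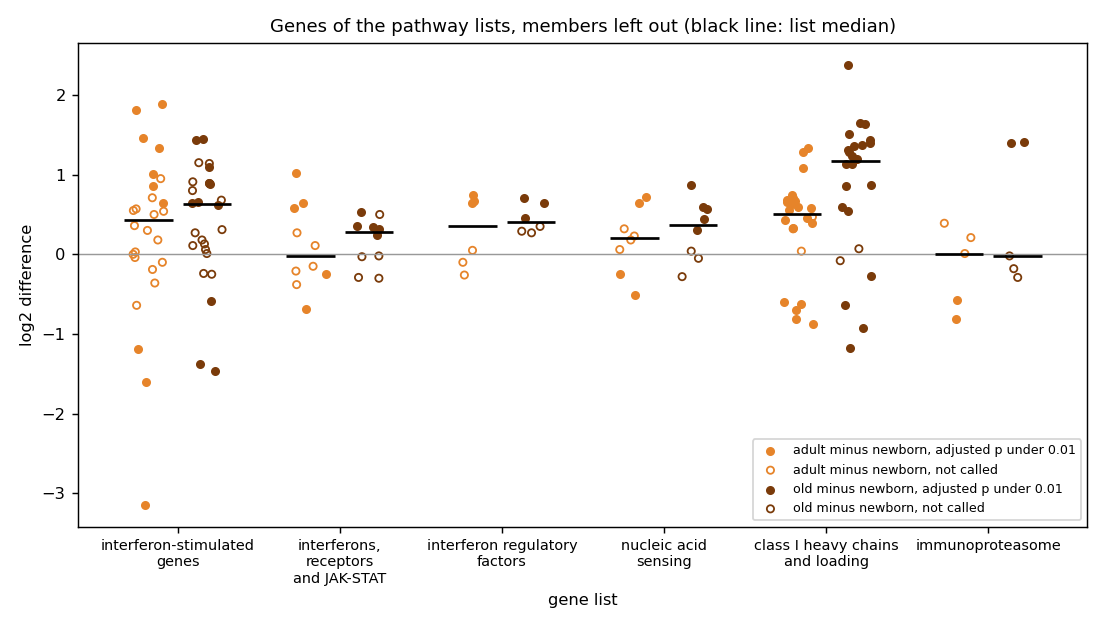
Log2 differences of each gene expressed in common (points) in the 6 pathway lists, for adult minus newborn and old minus newborn, filled where the adjusted p was under 0.01. The class I list lay highest in old rats, with a median of 1.17 and 18 of 24 genes called higher (31.5% of all transcripts were), and the immunoproteasome list was split, with Psmb8 and Psmb9 above 1 and the other 3 between −0.29 and −0.02 in old rats.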

How the data were processed

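The deposited files hold 1 array each, as the scanner software (Agilent Feature Extraction, 9.5.1.1 for adults and 9.5.3.1 for the others, per the file headers) wrote it, with background-subtracted intensity values. The authors also deposited a table of ratio values, and this was used as an alternative. In it signals below 0.01 were set to 0.01 and divided by the array median. By the authors' methods each gene was then divided by its median over all arrays. Control spots and spots with outlier flags were left out, spots of a probe were averaged to 41012 probes, each array was divided by its median, values under 0.01 were set to 0.01 and log2 was taken. The arrays of both sides of a rat were averaged. limma 3.58.1 (R 4.3.3) was fitted over 6 groups (L1 to L4, adult, old) and 27 rats, newborn being the mean of the 4 litters, and p-values were adjusted by Benjamini-Hochberg over 23668 probes expressed in common. A call is an adjusted p under 0.01. The fit recovered known changes in data simulated with independent normal noise. That simulation held no effect of slide or scan day and no outlying rat, so it does not speak to these.

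Members, lists and alternatives were chosen with earlier results of these data known. The text names all member probes, the 2 largest called changes up and down of each list in each comparison, every gene of lists with 6 or fewer measured, and the 5 nearest transcripts to Irf7 and B2m, except for some genes that are not reported here. Genes raised in rat 15, cell markers, Irf2, Irf4, Irf9, Ifnb1 and Ifna4 were named after their values were seen. Quantile normalization, the 75th percentile, another background correction, other filters, blocks by rat, slide and scan day, other samples and the t-test of the authors' methods were tried as alternatives. Replicates are separate rats, and the number of arrays limits the precision.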

Additional observations from a re-analysis of the deposited data

Results flagged for a closer look

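In groups of 4 or 5 rats, 72 groups of a member probe were examined for 1 rat lying far from the rest of its group (Dixon's criterion at 95%), and 13 were marked, where chance marks about 1 in 20. Of these, 3 were adult rat 15 and 5 were L2 pup 24. Rat 15 was marked for Gbp2 (7.51, the nearest adult 2.84), Tap1 (5.38, the nearest 2.98) and Irf7 (5.00, the nearest 2.73). Pup 24 was marked for Irf1 (3.58), Irf7 (3.86) and 3 of the 4 B2m probes (9.94, 8.89 and 7.80). Gbp2 was marked in 2 further pups, L1 rat 11 (3.09) and L3 rat 29 (4.57). One B2m probe was marked for a low value in L3 rat 30 (7.92). Mx1 was marked for low values in L3 rat 26 (−6.64, the level to which values under the floor were set, below background) and in old rat 18 (−2.60, the nearest old rat −0.92).

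Mx2 differed between litters L2, L3 and L4 by the F test of the difference itself (limma adjusted p = 0.00209), L2 being the lowest.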

How the results depend on the processing

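No paired analysis was possible because the groups share no replicate numbers. Of the 8 members expressed in common, 4 were called between newborn and adult rats, or 2 by the methods' t-test and 1 with a fold of at least 5 added. The count was 6 with the 75th percentile, every array as a sample, rat as a random block or an adjusted p under 0.05, each with 5 higher in adults. It was 5, all higher, with quantile normalization and with normexp, and 3 with slide or scan day as a random block. Between newborn and old rats 7 were called. The count was 6 with slide or scan day as a random block or L4 alone as newborn, 5 with litter means as replicates and 4 with L2 alone as newborn. It was 0 with the fold of 5, which also left 0 of the 7 called between old rats and L1. Between adult and old rats 2 were called, or 4 with every array as a sample, 4 with rat as a random block, 4 at an adjusted p under 0.05, 1 with scan day as a random block, 1 with only these groups in the fit, 6 without rat 15, and 0 by the methods' t-test (1 at an unadjusted p under 0.05) or with the fold of 5. Mx2 was the 1 member called between litters, and 0 were called with normexp background correction and quantile normalization, with slide as a random block, without L2 rats 21 and 24, or with pups of the first 4 scan days (2, 2, 1 and 1 at an unadjusted p under 0.05 in limma). The last 2 settings were chosen after the data were seen. Leaving out 1 rat at a time gave 3 to 6 (newborn and adult), 6 to 7 (newborn and old), 2 to 6 (adult and old), 1 to 2 (litters) and 6 to 7 (old and L1). Among pups 13 pairs of members passed, and 4 without pup 24.

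Directions turned between adults and pups for 2 B2m probes that had no call. One, at −0.09, gave 0.49 (quantile) and 0.56 (normexp), both then called, and without a call 0.05 (75th percentile), 0.32 (L1 alone) and 0.11 (without adult rat 13). The other, at 0.01, gave −0.01 (slide block and t-test), −0.04 (scan day), −0.29 (L2 alone), −0.12 (L4 alone) and −0.21 to 0.17 without 1 rat. Gbp2 turned to −0.34 in adults and −0.56 in old rats against L2 alone. Without 1 rat it ran from −0.44 (without rat 15) to 1.19 between adults and pups and from −0.66 to 0.97 (without rat 15) between old rats and adults. Irf7 in adults turned to −0.19 against L2 alone, and without 1 rat ran from −0.40 (without rat 15) to 0.42, and Mx1 to 0.52 between old rats and adults without the filter and rat 15. Of the other values of single probes 1582 kept direction and call, 42 lost a call and 38 gained one in the same direction. The causes were not tested. Mx1 in pups was limited by its signal, which was below background.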
